A study of Mus musculus with 2 samples.

Results

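Polycomb repressive complex 2 (PRC2) is described here through the genes of its core and accessory subunits in villi of the mouse small intestine, the finger-like folds that carry the differentiated epithelium. The members were 10 genes listed by symbol: Ezh1, Ezh2, Eed, Suz12 and Rbbp4 of the core, and Jarid2, Aebp2, Mtf2, Phf1 and Phf19 of the accessory subunits. A row was used for 9 of them, out of 20722 gene symbols in the table, and Ezh2 was not analysed here. A symbol with several RefSeq transcripts was represented by the transcript with the highest mean.

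PRC2 places methyl groups on lysine 27 of histone H3, a mark of silenced developmental genes. Its catalytic subunit is either Ezh1 or Ezh2, Suz12 holds the complex together, Eed binds the finished mark and boosts the enzyme, and Rbbp4 binds histones. Dividing cells are known for high Ezh2 and resting, differentiated cells for Ezh1. Accessory subunits define the forms of the complex: the Polycomb-like proteins Phf1, Mtf2 and Phf19 mark one form, and Jarid2 and Aebp2 the other. PRC1, a separate complex whose ligases Ring1 and Rnf2 (Ring1b) mark histone H2A, often sits on the same genes.

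The dKO-labelled library came from C57BL/6 mice of the genotype Rosa26-CreERT2 Cdkn2a-/- Ring1a-/- Ring1bf/f, which lack Ring1 throughout life and carry an Rnf2 allele that Cre can delete. The control library came from the same strain with Rosa26-CreERT2 and Cdkn2a-/- alone, so both lacked Cdkn2a. Both received 3 tamoxifen injections, villi were purified 6 days later, and the labels give neither age nor the number of mice. The Rosa26 locus is active in most cell types, so Cre was not restricted to the epithelium by its promoter. Each genotype had 1 library. No difference below therefore has a replicate check, and genes are compared by size alone. The samples are whole villi, in which fewer cells of a type and less RNA per cell cannot be told apart.

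The libraries held 1058196 reads (dKO-labelled) and 775827 reads (control), recovered from the deposited normalised counts. A gene is called measured when the mean of both normalised counts is at least 20, which 6001 symbols reached. Intervals are 95% exact intervals for counting error alone. The targeted genes were not lower beyond counting error: Ring1 had 10 reads in the dKO-labelled library and 10 in the control, and Rnf2 had 82 in the dKO-labelled library and 59 in the control. Whole-transcript counts do not show which exons remained, so the label is used as given. The libraries also differed in sex: Xist, made by the inactive X chromosome, had 1 read in the dKO-labelled library and 80 in the control, and the Y-linked Ddx3y had 131 in the dKO-labelled library and 0 in the control. Sex and genotype therefore cannot be told apart for any ratio below, those of the PRC2 genes included. With the deposited size factors the median measured gene was 1.42-fold higher in the dKO-labelled library (log2 ratio 0.51), and the ratios of PRC2 genes are given beside that shift. All 10 absorptive enterocyte markers were measured, and they summed to 13088 reads in the dKO-labelled library and 10027 in the control, so the defining markers of villus epithelium were present in both. Their levels were not all alike. Of the 10, 2 were at least 2-fold higher (26.2% of all measured genes) and 0 lower (4.18%). The 2 were Sis, 8.70-fold (6.19 to 12.6), and Lct, 4.15-fold (3.53 to 4.89).

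The promoters of Rbbp4 and Phf1 are shown because these genes lay at the upper and lower ends of the measured PRC2 ratios described below. Each is the 250 bases before the RefSeq transcription start, 5′ to 3′ on the gene's strand, in build GRCm38.p6. Capitals mark the E2F core motif, searched on both strands as TTNNCGC with each N either C or G. E2F proteins are the transcription factors that switch on genes of the dividing cell.
Rbbp4, chr4:129335371-129335620, minus strand: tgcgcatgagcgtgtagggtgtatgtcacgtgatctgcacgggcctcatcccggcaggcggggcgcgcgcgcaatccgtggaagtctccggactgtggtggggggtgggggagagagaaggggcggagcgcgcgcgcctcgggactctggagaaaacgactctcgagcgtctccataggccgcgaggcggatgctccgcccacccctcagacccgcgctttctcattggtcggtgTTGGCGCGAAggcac
Phf1, chr17:26932877-26933126, plus strand: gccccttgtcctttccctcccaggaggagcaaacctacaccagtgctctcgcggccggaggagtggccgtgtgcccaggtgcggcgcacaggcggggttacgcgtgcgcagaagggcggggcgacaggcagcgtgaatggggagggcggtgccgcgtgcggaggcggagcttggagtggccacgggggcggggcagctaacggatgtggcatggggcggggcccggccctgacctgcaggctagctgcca

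The Rbbp4 promoter held 2 overlapping matches, which start 15 and 12 bases before the transcription start, and 30 CpG dinucleotides. The Phf1 promoter held 0 matches and 23 CpG dinucleotides. Of 32851 promoters of this length, 7.89% held a match, and the median number of CpG dinucleotides was 6. Of the other measured members, Ezh1 and Eed held 0 matches with 14 and 12 CpG dinucleotides. Over all 10 members 4 held a match, Suz12, Phf19 and Aebp2 beside Rbbp4. The 7.89% counts single promoters, whereas a member with several promoters counted if any matched, so these shares are not alike. The matched promoters of Suz12, Phf19 and Aebp2 held 37, 31 and 14 CpG dinucleotides, and the motif itself holds a CpG. The motif was chosen after the ratios were seen, and a match describes letters in this window alone.

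Among the core subunits, Rbbp4 had a high ratio and Ezh1 a low one beside the median gene. Rbbp4 (NM_009030) had a normalised count of 177.5 in the dKO-labelled library and 84.3 in the control, from 186 and 79 reads. This was the highest ratio among the measured members, 2.12-fold (1.62 to 2.80), or a log2 ratio of 1.07. It lay 0.56 above the median of measured genes, and 76.3% of those genes had a lower ratio. Ezh1 (NM_007970), the methyltransferase of resting cells, had a normalised count of 115 in the dKO-labelled library and 127 in the control. Its raw reads were the same in both, 120 and 120. The ratio of 0.901 (0.694 to 1.17) includes no change, but it lay 0.66 below the log2 ratio of the median measured gene, and 18.9% of measured genes lay lower.

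Eed (NM_021876), the reader of the finished mark, had a normalised count of 35.1 in the dKO-labelled library and 21.1 in the control. These counts came from 36 and 19 reads, a ratio of 1.71 (0.954 to 3.15). The interval includes both 1 and the 1.42-fold of the median gene, so a difference was not detectable at this depth. Suz12 (NM_199196), the scaffold, had 2 reads in the dKO-labelled library and 2 in the control, too few for a ratio.

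Of the accessory subunits, Phf1 alone was measured. Phf1 (NM_009343), a Polycomb-like protein that helps to recruit the complex to chromatin, had a normalised count of 217 in the dKO-labelled library and 285 in the control. With 228 and 270 reads it was the most deeply counted member, and its ratio was 0.761 (0.635 to 0.911). It lay 0.90 below the log2 ratio of the median measured gene, and 12.5% of measured genes lay lower.

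The other accessory subunits were near the lower limit of the table. Mtf2 (NM_001253877) had 5 reads in the dKO-labelled library and 2 in the control, a ratio of 2.25 (0.369 to 23.7). Phf19 (NM_028716) had 3 reads in the dKO-labelled library and 0 in the control, and Jarid2 (NM_001205043), which guides PRC2 to its sites, had 1 and 0. A count of 0 of 775827 control reads, taken as a floor of 3 reads, allows a share of up to 0.000387%. Aebp2 (NM_001005605), a DNA-binding cofactor, had 4 reads in the dKO-labelled library and 9 in the control, a ratio of 0.401 (0.0902 to 1.44). Within the Polycomb-like group, Phf1 made up 96.6% of 236 reads in the dKO-labelled library (93.4 to 98.5, Clopper-Pearson) and 99.3% of 272 in the control (97.4 to 99.9). These are shares of counted reads, not of expression, given the limits on the Mtf2, Phf19 and Phf1 counts described below.

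**Figure D1:**
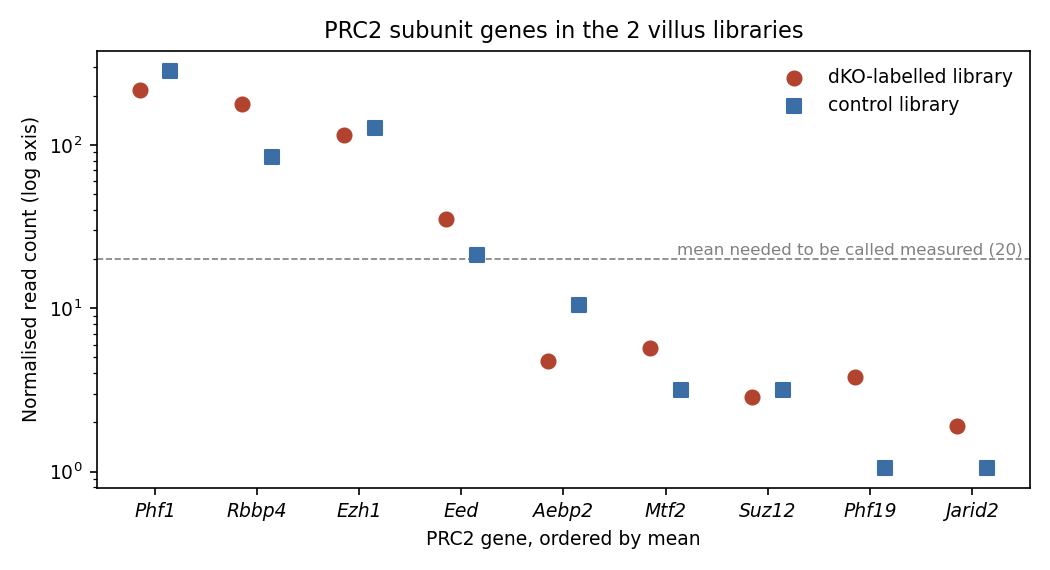
Normalised read counts of the 9 PRC2 genes on a log axis, 1 point per library (circles, dKO-labelled; squares, control), ordered by mean. Phf1, Rbbp4, Ezh1 and Eed lie above the dashed line at 20, and the other 5 genes lie below it in both libraries.

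Low counts do not show that Suz12, Jarid2, Mtf2, Phf19 and Aebp2 were little expressed. Together these 5 genes had 15 reads in the dKO-labelled library and 13 in the control. Broadly expressed genes such as Dnmt1 and Dpy30, named after their values were seen, were listed with 0 reads in both libraries. Symbols with several rows were measured less often than those with 1 row, 14.5% against 29.8%. Mtf2 has 3 rows and Aebp2 has 2, whereas Phf19, Suz12 and Jarid2 have 1 and all 4 measured members have 1. By the number of curated RefSeq transcripts in GRCm38.p6 there was little gap, 28.5% for several and 29.5% for 1. The part of transcript number in the low counts was not tested.

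Per transcript length, the order of Rbbp4 and Ezh1 was swapped between the libraries. The levels here are reads per kb of transcript, not scaled for depth, and are compared within a library. Phf1 stood highest in both, at 90.4 reads per kb in the dKO-labelled library (79.1 to 103) and 107 in the control (94.7 to 121). In the dKO-labelled library Rbbp4 followed at 42.2 (36.4 to 48.7), then Ezh1 at 28.6 (23.7 to 34.2) and Eed at 17.4 (12.2 to 24.1) reads per kb. In the control Ezh1 came next at 28.6 (23.7 to 34.2), then Rbbp4 at 17.9 (14.2 to 22.3) and Eed at 9.19 (5.53 to 14.4). The intervals of Rbbp4 and Ezh1 did not overlap in either library. Those of Ezh1 and Eed overlapped narrowly in the dKO-labelled library, and those of Rbbp4 and Eed in the control, so these neighbours in the order were not separated by their intervals.

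**Figure D2:**
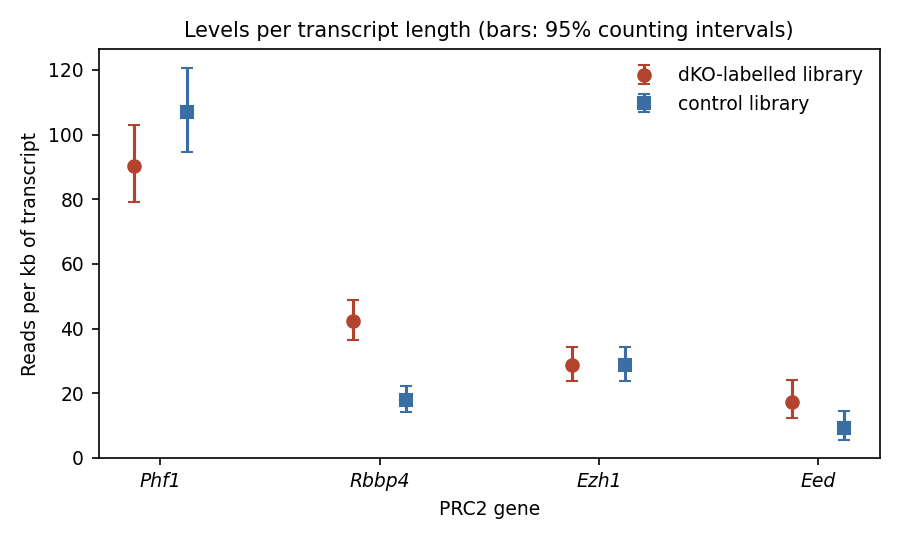
Reads per kb of transcript for the 4 measured PRC2 genes, not scaled for depth, with circles for the dKO-labelled library, squares for the control and bars for 95% counting intervals. Rbbp4 lies above Ezh1 in the dKO-labelled library (42.2 and 28.6) and below it in the control (17.9 and 28.6).

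A ratio of reads within a library does not depend on how the libraries are scaled. Rbbp4 had 1.55 reads per Ezh1 read in the dKO-labelled library and 0.658 in the control, a change of 2.35-fold (1.61 to 3.45). Against Phf1, Rbbp4 had 0.816 reads per read in the dKO-labelled library and 0.293 in the control, a change of 2.79-fold (2.01 to 3.88). Eed over Phf1 changed 2.24-fold (1.21 to 4.26). The remaining pairs changed less, Eed over Ezh1 by 1.89-fold (0.992 to 3.70), Rbbp4 over Eed by 1.24-fold (0.632 to 2.38) and Ezh1 over Phf1 by 1.18-fold (0.859 to 1.63). Thus 3 of 6 pairs differed at least 2-fold between the libraries, beside 39.7% of all pairs of measured genes. The pairs share members and were chosen after the data were seen.

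By the 2-fold rule, the 4 measured PRC2 genes are given beside the shares of the whole table, and so few genes cannot show whether their shares differ. At least 2-fold higher was 1 of 4, Rbbp4, against 26.2% of all measured genes, and at least 2-fold lower were 0 of 4, against 4.18%. A counting interval wholly above 1 was found for 1 member (52.5% of measured genes) and wholly below 1 for 1, Phf1 (12.1%). Set against the median gene, the interval of Rbbp4 lay above (26.0% of genes) and those of Ezh1 and Phf1 below (28.1%). At least 2-fold from that median were 0 members in either direction (11.8% of genes above, 10.4% below). The median log2 ratio of the 4 genes was 0.28, and that of all measured genes was 0.51. Under total-count, upper-quartile and TMM scaling Rbbp4 was no longer 2-fold higher, with log2 ratios of 0.77, 0.43 and 0.54, and Phf1 was at -0.69, -1.03 and -0.92.

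**Figure D3:**
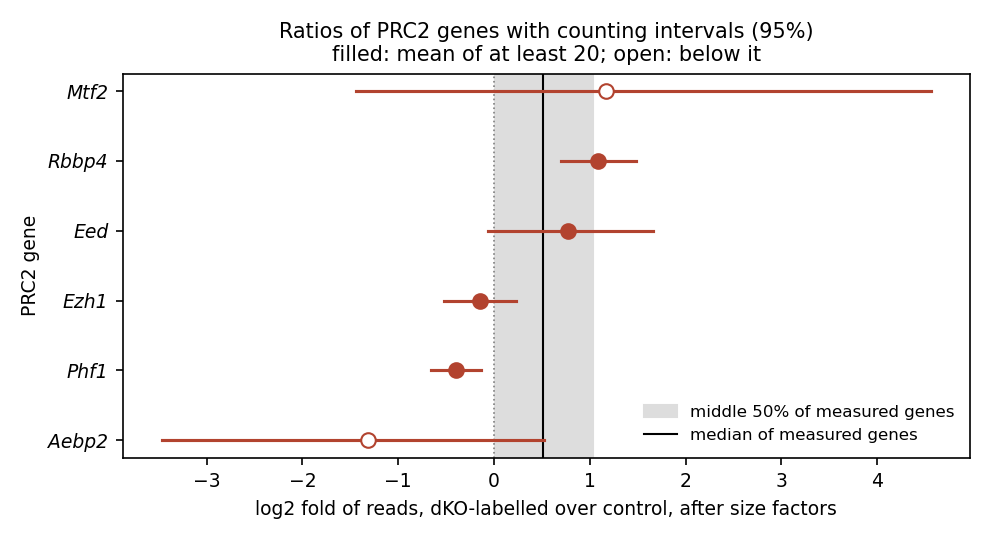
Log2 fold of reads, dKO-labelled over control, for the 6 PRC2 genes with enough reads for a ratio, with 95% counting intervals; filled circles are measured genes and open circles have a mean under 20. The line is the median of measured genes (0.51) and the grey band their middle 50% (0.01 to 1.03). The points of Rbbp4 and Mtf2 (open) lie to the right of the band, and those of Ezh1, Phf1 and Aebp2 (open) to its left.

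Summed over the 9 genes, PRC2 reads numbered 585 in the dKO-labelled library and 501 in the control, a ratio of 1.05 (0.933 to 1.19). Without Rbbp4 there were 399 reads in the dKO-labelled library and 422 in the control, a ratio of 0.852 (0.741 to 0.980). Of these reads, Phf1 alone gave 228 in the dKO-labelled library and 270 in the control. The ratio without Rbbp4 therefore rests mostly on Phf1, with its overlap described below, and does not show a fall across the other genes. Only the interval with Rbbp4 included 1, and both intervals lay wholly below the 1.42-fold of the median measured gene. That median counts each gene once, whereas a sum follows the genes with most reads, so these measures are not alike. Rbbp4 is shared with NuRD, Sin3 and CAF-1, complexes that deacetylate or assemble chromatin, so its RNA is not a measure of PRC2 alone. In the authors' deposited table the unadjusted DESeq p-values of the 9 genes ran from 0.427 for Rbbp4 to 1 for Suz12 and Jarid2.

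Transcript length moved with the ratio over the whole table. Among measured genes the median log2 ratio was 0.65 for transcripts under 2000 bases, 0.53 from 2000 to under 4000, 0.35 from 4000 to under 8000 and 0.05 at 8000 or more. Rbbp4 (4407 bases) and Ezh1 (4193 bases) fall in the same class, and relative to its median they lay at 0.72 and -0.50 on the log2 scale. Phf1 (2522 bases) lay at -0.92 and Eed (2067 bases) at 0.18 relative to theirs.

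**Figure D4:**
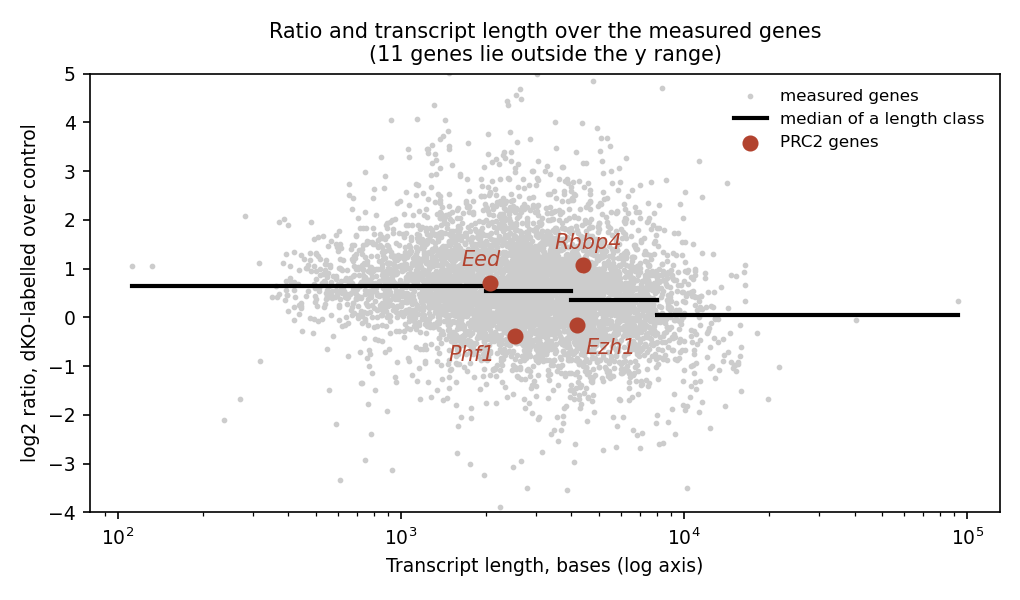
Log2 ratio, dKO-labelled over control, against transcript length on a log axis for the measured genes (grey), with the median of each length class (black lines) and the 4 measured PRC2 genes (red). The class medians fall with length from 0.65 to 0.05; Rbbp4 lies above and Ezh1 below the line of the same class.

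Overlapping and similar genes limit some of these values. The library kit does not mark strand, and in GENCODE M21 the exons of Phf1 share 1370 bases with Cuta on the opposite strand, and those of Rbbp4 share 782 bases with Sync and 796 with Gm26722. Exons of Eed share 261 bases with E230029C05Rik on the opposite strand. Among these neighbours, the counted reads were 9 in the dKO-labelled library and 1 in the control for Cuta, and 2 and 1 for Sync. Reads of the overlaps cannot be assigned to a gene, so Phf1, Rbbp4 and Eed are uncertain to that extent. For Phf1 the 1370 bases stand beside a transcript of 2522 bases. Its top place per kb, its ratio and its share of Polycomb-like reads carry this limit. The low count listed for Cuta does not show how many Phf1 reads came from the overlap. Rbbp4 also has the close paralog Rbbp7.

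Both measured genes of the list linked to PRC2, Rbbp7 and Epop, were at least 2-fold higher, as were 26.2% of all measured genes. Rbbp7, the histone-binding paralog of Rbbp4, had 113 reads in the dKO-labelled library and 44 in the control, 2.31-fold (1.62 to 3.36). Epop (NM_175332, listed as E130012A19Rik), an accessory factor of the Polycomb-like form that links PRC2 to elongin, had 239 reads in the dKO-labelled library and 60 in the control, 3.59-fold (2.70 to 4.85). Set against the median gene, 1 of them, Epop, was still 2-fold above, as were 11.8% of all measured genes. The other 3 of the 5 genes, Lcor, Lcorl and Ezhip, had at most 9 reads in a library.

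Of the enzymes that remove the PRC2 mark, 2 were measured, and both lay below the median gene. Kdm6a was at least 2-fold lower, as were 4.18% of all measured genes, and also 2-fold below the median gene (10.4%). Kdm6b had 180 reads in the dKO-labelled library and 181 in the control, a ratio of 0.896 (0.725 to 1.11), an interval that includes 1 and lies wholly below the 1.42-fold of the median gene. Kdm6a had 23 reads in the dKO-labelled library and 71 in the control, 3.42-fold lower (2.11 to 5.74). Kdm6a is X-linked and escapes X inactivation, and its Y-linked relative Uty had 31 reads in the dKO-labelled library and 0 in the control. For both genes the difference in sex between the libraries stands beside these values.

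Partners of Rbbp4 in NuRD, Sin3 and CAF-1 had a median log2 ratio of 0.71 over 10 measured genes of 16 with a row. At least 2-fold higher were 2 of 10, against 26.2% of all measured genes, and at least 2-fold lower 0, against 4.18%. Set against the median gene 1 was 2-fold above, against 11.8%, so these shares did not exceed the background. The deacetylase gene Hdac2 had 35 reads in the dKO-labelled library and 5 in the control (6.31-fold, 2.46 to 20.6), and the NuRD subunit gene Mbd3 had 107 in the dKO-labelled library and 42 in the control (2.30-fold, 1.59 to 3.36). Mta1 was at 2.01-fold (1.01 to 4.21) by reads and at 0.90 on the log2 scale with the pseudocount of 1.

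Of PRC1 subunit genes, 7 were measured of 18 with a row, 3 were at least 2-fold higher (26.2% of all measured genes) and 0 lower (4.18%), with a median log2 ratio of 0.31. All 3 also lay 2-fold above the median gene (11.8% of all measured genes), among them Cbx6, a reader of the PRC2 mark (52 reads in the dKO-labelled library and 9 in the control), and the Ring ligase partner Bmi1 (94 and 28 in the same order). The PR-DUB genes, which remove the PRC1 mark from H2A, had a median of 0.24 over 2 measured genes, Bap1 and Asxl1. At least 2-fold higher were 0 (26.2% of all measured genes), and 0 lower (4.18%).

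**Figure D5:**
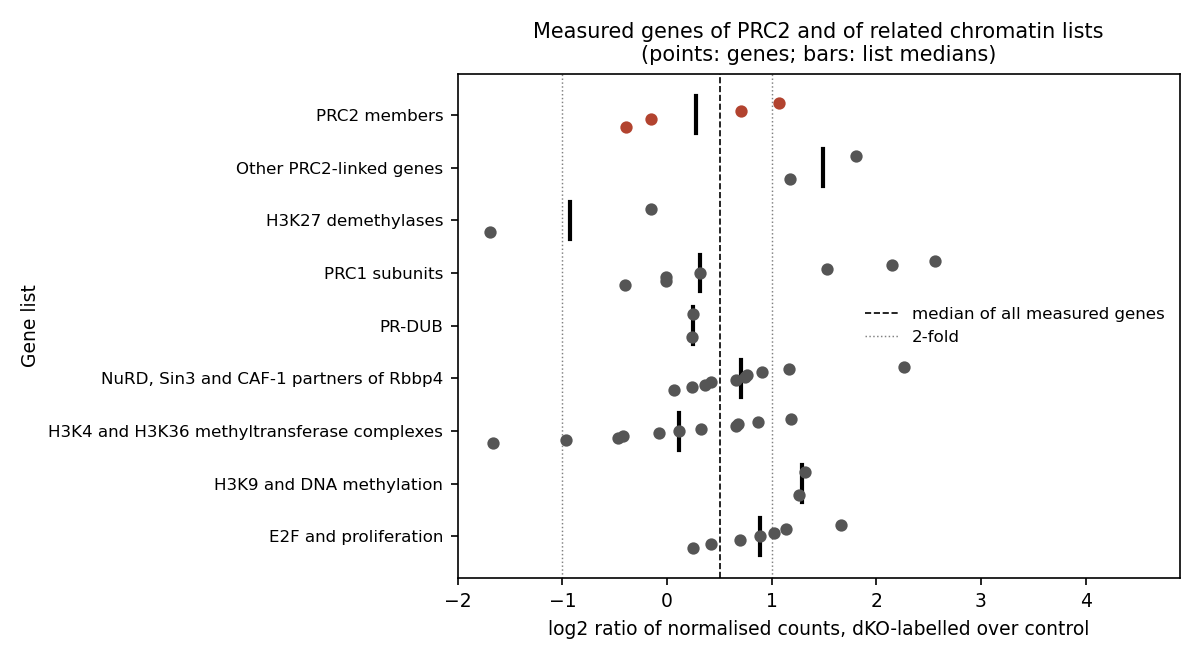
Log2 ratios, dKO-labelled over control, of the measured genes of PRC2 (red, top) and of 8 related lists (grey), with list medians as bars, the median of all measured genes as a dashed line (0.51) and 2-fold as dotted lines. The 4 PRC2 genes spread from -0.39 to 1.07 around a median of 0.28, and both measured PRC2-linked genes lie to the right of 2-fold.

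Genes of the dividing cell and markers of other cell types stood beside these ratios. Of 19 E2F and proliferation genes with a row, 19 had more reads in the dKO-labelled library, the deeper one, as did 73.2% of all symbols with a read. They summed to 646 reads in the dKO-labelled library and 299 in the control, 1.95-fold (1.70 to 2.24), and 3 of 7 measured were at least 2-fold higher (26.2% of all measured genes) and 1 was so against the median gene (11.8%). The 3 were the E2F factor E2f2 (61 in the dKO-labelled library and 16 in the control), the cell cycle marker Mki67 (32 and 12) and the nucleotide synthesis gene Rrm2 (34 and 14). Crypt stem and transit amplifying markers, of which 3 are also in that list, summed to 236 reads in the dKO-labelled library and 106 in the control. Olfm4, a defining stem cell marker, had 13 and 0.

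Fibroblast markers summed to 222 reads in the dKO-labelled library and 42 in the control over 6 genes, with Dcn listed at 0 in both. Smooth muscle markers summed to 188 in the dKO-labelled library and 41 in the control over 6 genes, with Myh11 at 1 and 0. Immune markers summed to 215 in the dKO-labelled library and 134 in the control over 7 genes, with Ptprc listed at 0 in both and Cd3e at 3 and 0. Endothelial markers had 15 in the dKO-labelled library and 4 in the control over 3 genes. The part of these cells and of cell division in the ratios of Rbbp4 and the other PRC2 genes was not tested.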

How the data were processed

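RNA of purified villi was sequenced with a TruSeq RNA v2 kit, per the labels, and aligned with TopHat on mm9 and scaled with DESeq, per the submitters' processing notes. How reads were counted, and with which strand setting, is not given in the sources used here. For 22040 RefSeq transcripts the authors deposited a signal per library, the DESeq base mean (normalised count), per the file headers. Of the values, 100% were whole multiples of the smallest of their column within 0.001, and none was 0. Reads were recovered as steps minus 1, which takes it that 1 read was added before scaling, an inference from the values. The deposited fold (ratio) and log2 columns compare both base means, and the deposited p-value is unadjusted, per the file headers.

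The measure was log2((dKO + 1)/(control + 1)) of normalised counts. Printed folds are recovered reads over the ratio of size factors (1.11) with 95% Clopper-Pearson intervals, and ratios of pairs have exact conditional intervals. With 1 library per genotype no count test was run. Lengths came from GENCODE M21 for 99.3% of measured genes. Identifiers matched RefSeq GRCm38.p6 in 98.5% of rows and promoters matched by symbol for all 10 members, credited to RefSeq.

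Of each related list, up to 3 measured genes with the largest absolute log2 ratio were named, with Rbbp7, Epop, Kdm6a, Kdm6b, Ring1 and Rnf2; other related genes were chosen after their values were seen. Of the genes this rule names, 1 is not reported here. The members and lists were chosen with earlier results of these data known. Tools were Python 3.11.15, numpy 2.4.6, pandas 2.3.3, scipy 1.17.1, matplotlib 3.10.9, R 4.3.3 and edgeR 4.0.16 (TMM factors alone). Alternatives were other scalings, a pseudocount of 5, other filters, summed rows, the added read taken off and an interval-based size rule.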

Additional observations from a re-analysis of the deposited data

How the results depend on the processing

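No paired analysis was possible because each genotype had 1 library and no result comes from a test, and leaving out a replicate was not possible either. The planned ratio of Ezh1 to Ezh2 was not run, since Ezh2 was not analysed here. Log2 ratios shift by about -0.30 with total counts, -0.64 with the upper quartile and -0.53 with TMM. The median log2 ratio of the measured PRC2 genes, 0.28, was -0.0100, -0.35 and -0.23 in that order and -0.23 with the median gene set to 0, so its sign followed the scaling. It was 0.50 with no filter (9 genes) and -0.15 at a mean of at least 50 (3 genes).

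PRC2 genes at least 2-fold higher numbered 1, but 0 under total counts, the upper quartile, TMM, the median set to 0 and the interval rule, and 2 with no filter. The no-filter count added Phf19, with 3 reads in the dKO-labelled library and 0 in the control. Those at least 2-fold lower numbered 0, but 1 under the upper quartile (Phf1) and 1 with no filter (Aebp2). Counts with no filter stand beside their own background, in which 17.9% of genes passed the 2-fold rule upward and 4.30% downward. The share of all measured genes at least 2-fold higher was 26.2%, and it was 16.3%, 8.91%, 11.1% and 11.8% under total counts, the upper quartile, TMM and the median set to 0, and 10.4% with the interval rule. The share at least 2-fold lower was 4.18%, and 7.32%, 13.8%, 11.2%, 10.4% and 1.73% in the same order. Over the 8 related lists, 13 measured genes were higher and 2 lower, beside the 26.2% and 4.18% of all measured genes. The 13 and 2 are counts and not shares, and the number of measured genes is given where each list is described. The higher ones numbered 6, 4, 5, 6 and 4 in that order, 32 with no filter, 24 at a mean of at least 10 and 5 at 50. The lower ones numbered 6 under the upper quartile and 1 at 50. Of all genes kept by these filters, 28.9% were at least 2-fold higher at a mean of at least 10 and 19.6% at 50. At 50, 4.22% were at least 2-fold lower. Filters test fewer or more genes by construction.

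A pseudocount of 5, summed rows and the added read taken off kept every count within 1.5 times. The added pair ratios and the Phf1 share of Polycomb-like reads stayed within their counting intervals with summed rows or the added read. Low counts limit the ratios: 5 of 9 PRC2 genes had fewer than 10 reads in each library.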

Other observations

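Of 13 genes of H3K4 and H3K36 methyltransferase complexes with a row, which oppose Polycomb silencing, 11 were measured, 1 was at least 2-fold higher (26.2% of all measured genes) and 1 lower (4.18%), and the median log2 ratio was 0.11. Against the median of all measured genes, 0 lay at least 2-fold above (11.8%) and 2 below (10.4%). This list was not set against length classes, and at 8000 bases or more 12.9% of measured genes were at least 2-fold lower. Kmt2d, a methyltransferase of enhancers, had 132 reads in the dKO-labelled library and 381 in the control, 3.20-fold lower (2.62 to 3.93), and its relative Kmt2c had 70 in the dKO-labelled library and 125 in the control. The adaptor Wdr5 had 66 reads in the dKO-labelled library and 25 in the control, 2.38-fold higher (1.48 to 3.94). Of the genes for H3K9 and DNA methylation 2 were measured of 6 with a row, the heterochromatin protein genes Cbx3 (91 in the dKO-labelled library and 33 in the control) and Cbx1 (31 and 10), both at least 2-fold higher (26.2% of all measured genes), though neither was so against the median gene.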
